A study of Mus musculus with 12 samples.

Results

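Cholesterol synthesis and sterol handling was followed through 29 genes named by symbol, from the first enzymes of the mevalonate route to the proteins that move and export sterol. All 29 were found among the 25203 genes of the deposited table, and all 29 passed the filter on low values (at least 1 FPKM in at least 3 libraries), so 29 of the 12641 genes tested are members. FPKM is a fragment count scaled to transcript length and to library size. The list, made of gene symbols of the pathway, was grouped by role into 7 enzymes that lead to farnesyl diphosphate, 11 enzymes from squalene to cholesterol, 4 genes that control the SREBP transcription factors, and 7 genes of sterol uptake, efflux and traffic.

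The cells were primary cultures of mouse intestinal stromal fibroblasts (labelled Pdgfra-lo-H2B-GFP, mesenchyme), and RNA-seq was done on 12 libraries, 3 in each of 4 groups. Vehicle cultures received vehicle and TGFB1 cultures received exogenous TGFβ-1, the ligand of the TGF-beta receptors. Vehicle_Tgfbr2KO and TGFB1_KO cultures were the same 2 treatments in cells labelled as knockout for Tgfbr2, the type 2 receptor gene. The knockout cultures were meant to show non-canonical activities of TGFB1. The Cre driver, the deleted part of the gene, and the dose and time of TGFB1 are not given in the sources used here, nor is it stated whether the 3 libraries of a group came from separate animals, so p-values measure only the spread between libraries. Every group carries the same 3 label numbers, which are called replicates 1, 2 and 3 here.

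Cholesterol is built from acetyl-CoA through mevalonate to farnesyl diphosphate, which is joined to form squalene and then closed and trimmed into the sterol ring. When sterol in the endoplasmic reticulum runs low, the escort protein SCAP carries SREBP factors to the Golgi, where proteases release the part that switches on nearly every gene of the route. When sterol is plentiful, INSIG proteins hold SCAP back, and oxysterols activate the LXR receptors, which switch on genes of sterol export. In fibroblasts this balance supplies membrane for growth and secretion.

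The fibroblast identity of the cultures was seen in Col1a1, the main fibrillar collagen gene, which stood between 845 and 4291 FPKM in all 12 libraries. Pdgfra, the gene behind the reporter, was at 142 ± 20.7 FPKM in Vehicle, 15.2 ± 4.01 in TGFB1, 74.5 ± 25.8 in Vehicle_Tgfbr2KO and 115 ± 69.9 in TGFB1_KO (SD, n = 3), and it fell with TGFB1 (limma adjusted p = 0.000197). Its part in the values that follow was not tested. Tgfbr2 was read at 27.0 to 78.8 FPKM, lower on average in Vehicle_Tgfbr2KO (34.7 ± 7.48 FPKM, SD, n = 3) than in Vehicle (55.0 ± 21.2 FPKM, SD, n = 3), but this difference did not pass (limma adjusted p = 0.260), and a whole-gene value cannot check a deletion of part of the gene. Macrophage RNA varied between libraries: the summed level of 12 macrophage and leukocyte markers ran from 13.9 to 684 FPKM, with the 2 lowest sums in replicate 2 of Vehicle and of TGFB1, while Fcgr1 and Cx3cr1 stayed under 1 FPKM throughout. The 8 epithelial markers summed to 65.1 FPKM in Vehicle_Tgfbr2KO replicate 1 and to 29.1 FPKM or less elsewhere. Library sums of FPKM ran from 498669 to 569510. The TGFB1 libraries had the highest sums (564183, 551457 and 569510), against 518802, 504849 and 503530 for Vehicle. The part of these sums in the changes that follow was not tested. Read numbers were not used, and the steps between low values put the relative depth of the TGFB1 libraries at 0.779 ± 0.0288 (SD, n = 3), against 1.00 ± 0.0411 (SD, n = 3) for Vehicle. It was 0.922 ± 0.0843 for Vehicle_Tgfbr2KO and 0.959 ± 0.245 for TGFB1_KO (SD, n = 3). The TGFB1_KO libraries were at 0.801, 1.24 and 0.834.

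The first question was what TGFB1 does to these genes in cultures not labelled knockout. Of the 29 members, 12 were lower with TGFB1 and 3 were higher (limma on log2(FPKM + 1), Benjamini-Hochberg adjusted p under 0.05 over all tested genes). Over all tested genes 14.6% were called lower and 17.3% higher. The share of members called lower (41.4%) was above that background and the share called higher (10.3%) was below it. The list was chosen with earlier results of these data known, so these shares describe it and do not test it. Of the 18 enzymes of synthesis, 9 fell, none rose and 9 did not pass. The median log2 change was -0.32 over the 29 members and 0.02 over all tested genes. In bulk libraries such as these, fewer cells of a type and less RNA per cell cannot be told apart. The lower relative depth of the TGFB1 libraries, and the smooth muscle and pericyte markers, moved with the same comparison. Of those 7 markers 4 rose with TGFB1, and they summed to between 1993 and 2483 FPKM in Vehicle and between 2986 and 3351 FPKM in TGFB1. The part of either in the fall of the sterol genes was not tested.

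Summed over the 18 enzymes, the Vehicle libraries gave 368, 419 and 401 FPKM (replicates 1, 2 and 3, the order used for every gene). The TGFB1 libraries gave 279, 339 and 315 FPKM. All 3 TGFB1 libraries lay below all 3 Vehicle libraries, and the sum changed by -24.3%, -19.1% and -21.4% in the 3 same-numbered pairs. In Vehicle_Tgfbr2KO the sum was 346, 359 and 421 FPKM, and in TGFB1_KO it was 364, 371 and 444 FPKM. Those 2 groups overlapped, and the pairs changed by 5.27%, 3.28% and 5.49%. No test was made on these sums, which weight a gene by its level: Fdps alone averaged 84.0 FPKM over the 12 libraries.

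**Figure D1:**
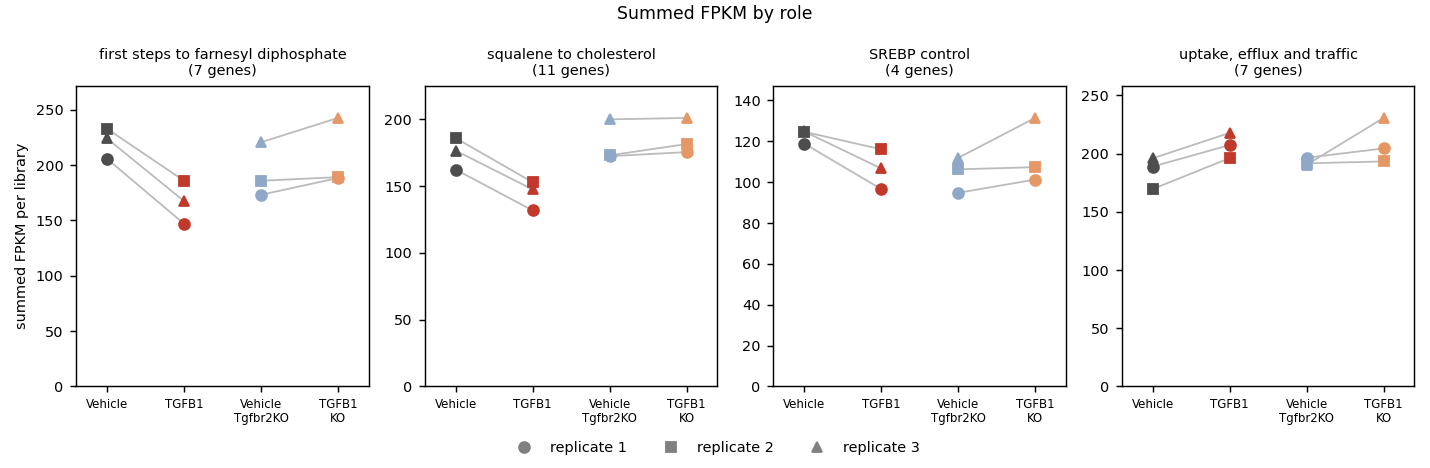
Summed FPKM per library for the 4 roles (y axis from 0, 1 point per library, symbol shape giving the replicate, grey lines joining same-numbered libraries of 1 genotype). For the first 7 enzymes the TGFB1 libraries (147 to 186 FPKM) lie below the Vehicle libraries (206 to 233 FPKM). For uptake, efflux and traffic the TGFB1 libraries (196.1 to 217.8 FPKM) lie just above the Vehicle libraries (169.5 to 195.9 FPKM). Npc2 weighs most in that sum: it averaged 102.5 FPKM in Vehicle and 123.7 FPKM in TGFB1, where the sum averaged 184.7 and 207.1 FPKM. Of the 7 genes of that role 3 were called higher and 2 lower.

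Among the 7 enzymes that lead to farnesyl diphosphate, 5 fell with TGFB1 and the other 2 were lower without passing. Idi1 encodes the isomerase that makes the building block used for chain growth. Vehicle libraries read 15.8, 20.3 and 18.4 FPKM, and TGFB1 libraries 9.15, 11.2 and 10.1 FPKM. The groups did not overlap, and the fall was 1.79-fold in mean FPKM (log2 -0.78, SE 0.18, limma adjusted p = 0.00949). Pmvk encodes the second mevalonate kinase. It averaged 13.0 ± 1.33 FPKM in Vehicle, with its lowest library at 11.4, and its TGFB1 libraries were at 7.83, 9.00 and 6.95 FPKM, again without overlap (1.63-fold lower, log2 -0.65, SE 0.16, adjusted p = 0.0131).

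Mvd, the decarboxylase gene that follows, fell 1.58-fold, from 11.8, 13.6 and 14.3 FPKM to 7.45, 10.4 and 7.18 FPKM (log2 -0.62, SE 0.18, limma adjusted p = 0.0268). Acat2, the thiolase gene for joining acetyl-CoA units, fell from 23.1, 30.6 and 24.7 FPKM to 15.8, 21.2 and 18.5 FPKM (log2 -0.48, SE 0.14, adjusted p = 0.0289). Mvk, for the first mevalonate kinase, had a smaller change with a tighter spread, from 22.3 ± 1.46 to 16.4 ± 1.03 FPKM (SD, n = 3; log2 -0.42, SE 0.08, adjusted p = 0.00250). In each of these 3 genes every TGFB1 library was below every Vehicle library.

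The 2 enzymes of this stretch that missed the threshold were Hmgcs1, which makes HMG-CoA, and Fdps, which makes farnesyl diphosphate. Hmgcs1 stood at 33.7, 37.3 and 47.0 FPKM in Vehicle and 24.9, 29.3 and 31.9 FPKM in TGFB1, lower in all 3 same-numbered pairs and without overlap (log2 -0.44, SE 0.21, limma adjusted p = 0.152). Fdps stood at 88.7 ± 4.47 and 76.7 ± 10.8 FPKM (SD, n = 3; log2 -0.22, adjusted p = 0.155). With the replicate number as a block within each genotype both passed (limma adjusted p = 0.00474 for Hmgcs1 and 0.0306 for Fdps). Each passed in only 2 of the 23 alternatives. The calls of Acat2 and Mvd were lost when 1 of several libraries was left out, up to adjusted p of 0.111 and 0.0958, and Pmvk was lost without TGFB1 replicate 3 (0.0530).

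From squalene to cholesterol, 4 of 11 enzymes fell and none rose. Fdft1, the squalene synthase gene, is the first committed step towards sterol. It was at 15.9, 18.1 and 18.1 FPKM in Vehicle and 9.66, 11.8 and 12.7 FPKM in TGFB1 (1.52-fold lower, log2 -0.57, SE 0.14, limma adjusted p = 0.00989). Lss, the cyclase gene that closes the ring, fell from 5.66, 6.16 and 6.40 FPKM to 2.68, 4.78 and 3.84 FPKM (log2 -0.59, SE 0.16, adjusted p = 0.0188). The groups did not overlap for either gene.

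Sqle, for the epoxidase that oxidises squalene, fell from 27.8 ± 2.15 to 21.2 ± 1.71 FPKM (SD, n = 3; log2 -0.37, SE 0.11, limma adjusted p = 0.0228). Leaving out 1 library at a time, the calls of Sqle and Lss were lost for several libraries (adjusted p up to 0.0848 and 0.0634), while Fdft1 kept its call in all 23 alternatives. Sc5d, a late desaturase gene, was at 32.9, 33.9 and 27.4 FPKM in Vehicle and at 21.1, 21.3 and 21.6 FPKM in TGFB1. Its 3 TGFB1 libraries were almost level and all below Vehicle (1.47-fold, log2 -0.53, SE 0.10, adjusted p = 0.00250).

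The other 7 enzymes of the ring did not pass, and their values did not all lie on the same side. Cyp51 (log2 -0.18), Tm7sf2 (-0.32), Msmo1 (-0.24), Nsdhl (-0.16) and Dhcr7 (-0.06) had means below Vehicle, with limma adjusted p from 0.164 to 0.805. These encode the demethylases, reductases and dehydrogenase that trim lanosterol. Hsd17b7, the ketoreductase gene, was instead at 9.36, 9.97 and 7.96 FPKM in Vehicle and at 10.7, 10.2 and 11.2 FPKM in TGFB1 (log2 0.21, adjusted p = 0.0549). Ebp, the sterol isomerase gene, was at 11.0, 10.8 and 10.3 FPKM in Vehicle and 13.8, 13.1 and 11.8 FPKM in TGFB1 (log2 0.25, adjusted p = 0.0729). Both were higher in every TGFB1 library than in every Vehicle library. Msmo1 passed with the replicate number as a block within each genotype (limma adjusted p = 0.0100). Of the 23 alternatives, Hsd17b7 was called higher in 4 and Ebp in 2, while Msmo1 was called lower in 2 and Tm7sf2 in 1.

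**Figure D2:**
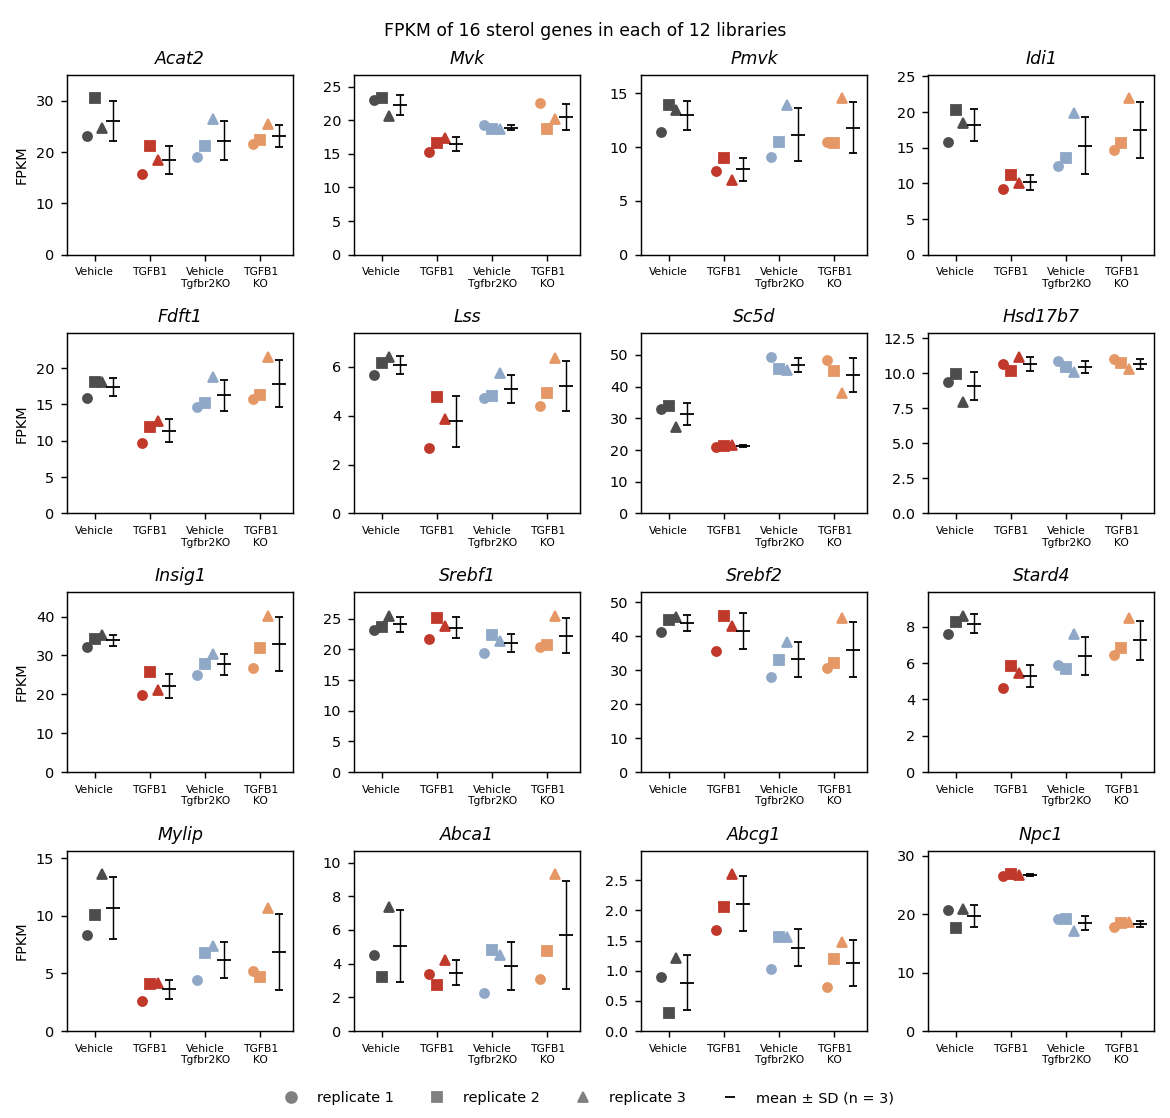
FPKM of 16 of the genes in each library (y axis from 0, symbol shape giving the replicate, black bars the mean ± SD of 3 libraries). Idi1, Fdft1, Sc5d, Insig1, Stard4 and Mylip are lower in each TGFB1 library than in each Vehicle library, Npc1 and Abcg1 are higher, and Srebf1, Srebf2 and Abca1 overlap.

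The genes of the SREBP factors themselves showed no detectable change. Srebf2, whose product mainly drives sterol genes, was at 41.3, 44.7 and 45.8 FPKM in Vehicle and 35.8, 46.1 and 43.0 FPKM in TGFB1 (log2 -0.08, 95% interval from -0.43 to 0.26). Srebf1, whose product also drives fatty acid genes, read 23.2, 23.6 and 25.3 FPKM without TGFB1 and 21.6, 25.1 and 23.8 FPKM with it (log2 -0.03, 95% interval from -0.24 to 0.17). The groups overlapped for both, and the limma adjusted p was 0.726 and 0.825. Scap, the escort gene, was at 21.0 ± 2.11 and 19.1 ± 0.261 FPKM (SD, n = 3; adjusted p = 0.250). These intervals bear on transcript level only, since SREBP activity is set by cleavage of the protein.

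Insig1, the retention factor that is itself switched on by SREBP, fell with the enzymes. It was at 32.2, 34.2 and 35.1 FPKM in Vehicle and 19.9, 25.8 and 21.1 FPKM in TGFB1, 1.52-fold lower without overlap (log2 -0.59, SE 0.14, limma adjusted p = 0.00937). Stard4, a carrier of cholesterol between membranes, fell alike, from 7.61, 8.28 and 8.61 FPKM to 4.62, 5.81 and 5.45 FPKM (log2 -0.54, SE 0.12, adjusted p = 0.00722). Both genes kept their call in all 23 alternatives.

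The genes of uptake, efflux and traffic split, with 3 higher and 2 lower of 7. Mylip, an LXR-induced ubiquitin ligase that degrades lipoprotein receptors, had the deepest fall of the 29. It was at 8.35, 10.0 and 13.6 FPKM in Vehicle and at 2.63, 4.06 and 4.15 FPKM in TGFB1, which is 2.95-fold lower (log2 -1.33, SE 0.29, limma adjusted p = 0.00595). Abcg1, an LXR-induced exporter gene, moved the other way: it was at 0.902, 0.301 and 1.21 FPKM in Vehicle and 1.68, 2.06 and 2.60 FPKM in TGFB1 (2.63-fold higher, log2 0.81, SE 0.22, adjusted p = 0.0162). Its level was the lowest of the 29, and the call was lost without Vehicle replicate 2 or TGFB1 replicate 3 (adjusted p up to 0.0660).

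Abca1, the exporter gene that loads apolipoproteins and also an LXR target, overlapped between the groups. Its FPKM was 4.53, 3.21 and 7.37 in Vehicle and 3.38, 2.75 and 4.23 in TGFB1 (log2 -0.39, SE 0.36, limma adjusted p = 0.446). Nr1h2, which encodes the widely expressed LXR receptor, was at 37.8 ± 1.33 and 42.2 ± 3.24 FPKM (SD, n = 3; log2 0.15, adjusted p = 0.113). Macrophages also express the exporters, and the macrophage markers varied with the libraries: their sum was 460, 36.1 and 684 FPKM over the Vehicle libraries and 271, 13.9 and 348 FPKM over the TGFB1 libraries. Abca1 and Abcg1 were both lowest in replicate 2 of Vehicle, and Abca1 also in replicate 2 of TGFB1. Abcg1 was higher with TGFB1 in all 3 pairs while the marker sum was lower in all 3. The part of macrophage RNA in their levels was not tested.

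Npc1 and Npc2 encode the partners that release cholesterol from the lysosome, and both rose. Npc1 was at 20.7, 17.6 and 20.9 FPKM in Vehicle and at 26.5, 26.8 and 26.6 FPKM in TGFB1 (1.35-fold, log2 0.42, SE 0.07, limma adjusted p = 0.00153), the smallest adjusted p of the 29. Npc2, the most abundant member, rose from 108, 93.8 and 106 FPKM to 129, 114 and 129 FPKM (log2 0.27, SE 0.08, adjusted p = 0.0325). The call of Npc2 was lost with upper-quartile scaling of the libraries and without single libraries (adjusted p up to 0.115).

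Groups that do not overlap were counted as well. With TGFB1, 13 members lay wholly below Vehicle (44.8% of 29, against 21.8% of all tested genes) and 6 wholly above (20.7%, against 26.1%). The 13 were Acat2, Hmgcs1, Mvk, Pmvk, Mvd, Idi1, Fdft1, Sqle, Lss, Sc5d, Insig1, Stard4 and Mylip. The 6 were Hsd17b7, Ebp, Abcg1, Nr1h2, Npc1 and Npc2.

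The promoters of these genes are shown because SREBP factors bind a sterol response element together with the factor NF-Y, which binds the CCAAT box. The RefSeq table of promoters (GRCm38.p6, another build than the mm9 of the deposited values) held 23 of the 29 members, some with several start sites. Each window was read as the 250 bases before the start site. The letters TCACNCCAC, for the sterol response element, were searched on both strands, and CCAAT likewise (ATTGG when it lies on the other strand). CCAAT occurred in 33.8% of the 32851 windows in the table and in 20 of the 29 member windows, which belong to 19 of the 23 members. TCACNCCAC occurred in 1.05% of all windows and in 1 of the 29 member windows, that of Hmgcs1. A match is a description of the letters and not a site of binding.

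Windows of 5 members follow, 5′ to 3′ on the strand of the gene, with matches to both motifs in capitals. Hmgcs1 is the member with the TCACNCCAC match, Mvk has the most CCAAT matches (5), Idi1 had the deepest fall among the enzymes, Insig1 fell with them, and Mylip had the deepest fall of all. They lie on the plus strand at chr13:119690101-119690350 (Hmgcs1), chr5:114444019-114444268 (Mvk), chr13:8885356-8885605 (Idi1), chr5:28071162-28071411 (Insig1) and chr13:45389492-45389741 (Mylip).
Hmgcs1: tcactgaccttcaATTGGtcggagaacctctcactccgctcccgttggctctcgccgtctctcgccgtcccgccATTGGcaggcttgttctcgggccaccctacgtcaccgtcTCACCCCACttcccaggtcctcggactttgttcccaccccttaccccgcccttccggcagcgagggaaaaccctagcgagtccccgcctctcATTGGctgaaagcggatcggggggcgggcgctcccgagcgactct
Mvk: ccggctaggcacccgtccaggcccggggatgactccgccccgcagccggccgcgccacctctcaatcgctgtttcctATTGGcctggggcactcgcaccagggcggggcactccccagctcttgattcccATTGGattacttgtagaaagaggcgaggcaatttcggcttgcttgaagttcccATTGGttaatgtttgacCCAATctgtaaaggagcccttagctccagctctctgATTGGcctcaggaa
Idi1: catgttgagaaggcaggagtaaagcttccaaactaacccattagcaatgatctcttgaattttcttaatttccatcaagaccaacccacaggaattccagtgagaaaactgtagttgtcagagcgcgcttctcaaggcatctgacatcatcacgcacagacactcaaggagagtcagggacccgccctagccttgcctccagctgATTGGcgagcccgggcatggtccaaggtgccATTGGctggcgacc
Insig1: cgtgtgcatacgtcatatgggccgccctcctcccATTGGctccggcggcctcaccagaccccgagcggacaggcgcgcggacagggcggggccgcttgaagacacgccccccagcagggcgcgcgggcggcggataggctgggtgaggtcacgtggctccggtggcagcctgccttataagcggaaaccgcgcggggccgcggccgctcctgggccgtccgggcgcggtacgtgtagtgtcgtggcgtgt
Mylip: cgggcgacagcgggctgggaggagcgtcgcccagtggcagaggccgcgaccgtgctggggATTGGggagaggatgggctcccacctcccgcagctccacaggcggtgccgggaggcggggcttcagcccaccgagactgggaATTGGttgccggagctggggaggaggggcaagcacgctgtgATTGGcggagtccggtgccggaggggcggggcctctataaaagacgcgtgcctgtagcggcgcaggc

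In these windows the Hmgcs1 match, TCACCCCAC, begins 137 bases before the start site, and CCAAT matches on the opposite strand begin 237, 176 and 45 bases before it. Idi1 has CCAAT matches beginning 45 and 14 bases before its start site. Insig1 has 1, which begins 216 bases before. Mylip, an LXR target that fell while Abcg1 rose, has 3.

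The second question was whether TGFB1 acts on these genes in cells labelled Tgfbr2KO. None of the 29 members passed there (limma adjusted p from 0.738 to 0.996), as none of the 12641 tested genes did (0% called), and none of the 29 reached an unadjusted p under 0.05, against 748 of all tested genes. With the replicate number as a block within each genotype 4 members had an unadjusted p under 0.05, against 1976 of all tested genes, and the smallest adjusted p was 0.243. No member's libraries separated, where 6.6% of all tested genes lay wholly above and 5.23% wholly below. The median log2 change of the members was 0.07, and 24 of 29 had a positive value. Over all tested genes the median was 0, and 6316 of 12641 had a positive value. Without TGFB1_KO replicate 3 the median of the members was -0.02, and without Vehicle_Tgfbr2KO replicate 1 it was 0.01. Leaving out a single library breaks a same-numbered pair. Replicate 3 was the highest for 19 of 29 members in Vehicle_Tgfbr2KO and for 24 in TGFB1_KO, which was not counted over all tested genes.

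Idi1, Insig1 and Stard4, which fell in cultures not labelled knockout, can be read side by side here. Idi1 was at 12.4, 13.6 and 19.9 FPKM in Vehicle_Tgfbr2KO and 14.7, 15.7 and 22.0 FPKM in TGFB1_KO (log2 0.19, 95% interval from -0.22 to 0.60). Insig1 went from 25.0, 27.8 and 30.4 FPKM to 26.7, 31.8 and 40.2 FPKM (log2 0.22, 95% interval from -0.09 to 0.54). Stard4 went from 5.88, 5.67 and 7.59 FPKM to 6.46, 6.82 and 8.48 FPKM (log2 0.16, 95% interval from -0.11 to 0.44). All 3 genes were higher with TGFB1 in each same-numbered pair, but their libraries overlapped and none passed the test. They are not typical of the 29 members, of which 7 were higher in all 3 pairs and 2 (Sc5d and Abcg1) in none. These pairs were not counted over all tested genes. Sc5d, which also fell in the other cultures, went from 49.4, 45.7 and 45.3 FPKM to 48.5, 44.9 and 37.9 FPKM.

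Mylip was at 4.39, 6.74 and 7.37 FPKM in Vehicle_Tgfbr2KO and 5.22, 4.69 and 10.6 FPKM in TGFB1_KO (log2 0.08, 95% interval from -0.56 to 0.72). Npc1 read 19.2, 19.2 and 17.1 FPKM with vehicle and 17.8, 18.5 and 18.7 FPKM (log2 -0.01, 95% interval from -0.17 to 0.15). The interval of Npc1 is the narrower. Both leave out the change seen in cultures not labelled knockout (log2 -1.33 for Mylip and 0.42 for Npc1). So do the intervals of Idi1, Insig1 and Stard4 given above. Abcg1 read 1.03, 1.56 and 1.56 FPKM with vehicle and 0.726, 1.19 and 1.48 FPKM, lower in each pair (log2 -0.17, 95% interval from -0.65 to 0.31). That interval leaves out the 0.81 of Abcg1 in cultures not labelled knockout.

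**Figure D3:**
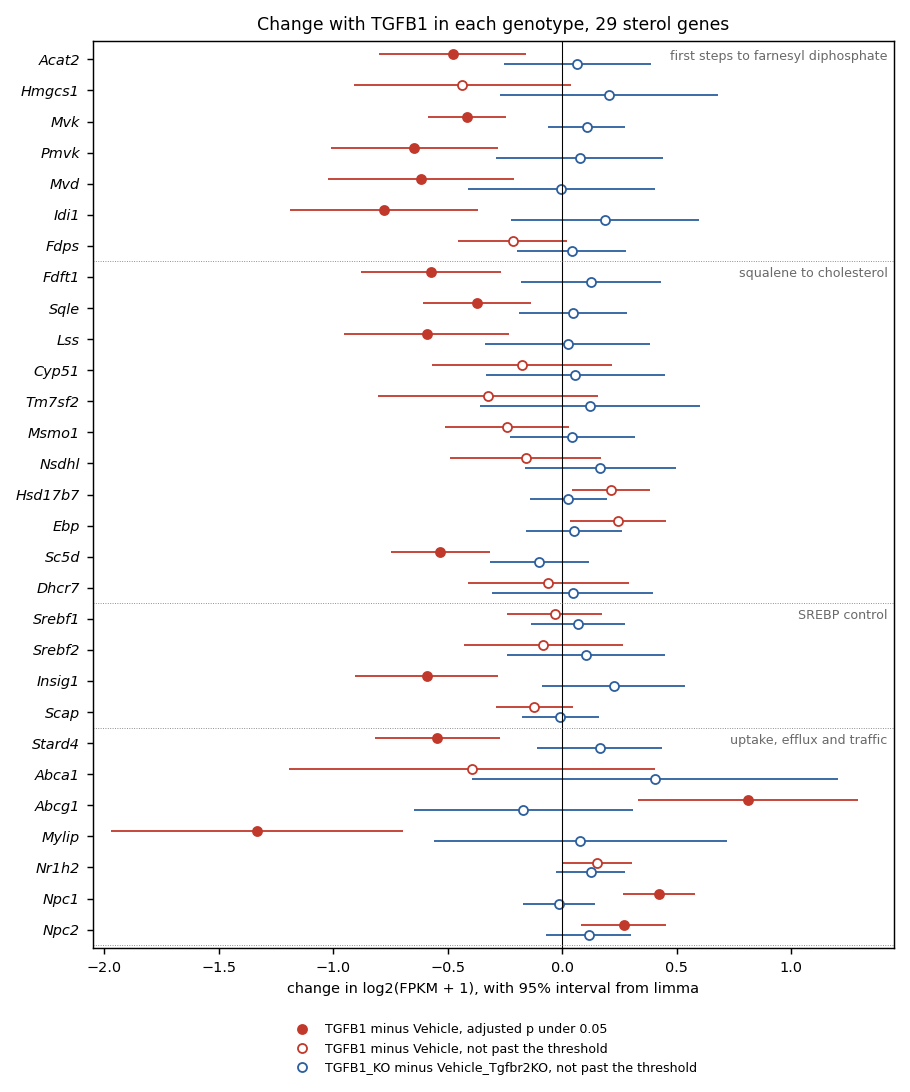
Change with TGFB1 in log2(FPKM + 1) for the 29 genes in pathway order (x axis, points with 95% intervals from limma), in red for TGFB1 minus Vehicle and in blue for TGFB1_KO minus Vehicle_Tgfbr2KO, with filled points where the adjusted p was under 0.05. In red, 12 filled points lie left of 0 and 3 lie right of it, and in blue no point is filled.

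The difference between the genotypes was tested with the interaction term, the TGFB1 change in knockout cultures minus that in the others. It passed for 7 members, 6 with a positive value and 1 with a negative one, where 8.38% of all tested genes were positive and 9.26% negative. The positive members (20.7% of 29) were Mylip (log2 1.41, SE 0.41), Idi1 (0.97, SE 0.26), Insig1 (0.82, SE 0.20), Stard4 (0.71, SE 0.17), Fdft1 (0.70, SE 0.19) and Mvk (0.52, SE 0.11), with limma adjusted p from 0.00907 to 0.0377. The negative member was Npc1 (log2 -0.43, SE 0.10, adjusted p = 0.0153).

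With the replicate number as a block within each genotype the interaction passed for 16 members, 14 positive and 2 negative, and no call was lost. The same block raised the share over all tested genes to 28.1%, of which 13.7% were positive and 14.4% negative. The 9 added were Acat2, Hmgcs1, Pmvk, Mvd, Sqle, Lss, Msmo1, Sc5d and Abcg1, with limma adjusted p from 0.00492 to 0.0408. Mvk and Npc1 kept their interaction call in all 22 alternatives. Without TGFB1 replicate 1 only 2 members passed, without Vehicle_Tgfbr2KO replicate 1 it was 3, without Vehicle replicate 2 or Vehicle_Tgfbr2KO replicate 2 it was 4, and Idi1, Fdft1 and Mylip were each lost without any of 7 libraries.

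The last comparison set Vehicle_Tgfbr2KO against Vehicle, the effect of the genotype without added TGFB1. It shares the Vehicle libraries with the first comparison, so values are given side by side and no overlap is drawn between them. Only Sc5d passed, and it was higher: 49.4, 45.7 and 45.3 FPKM in Vehicle_Tgfbr2KO against 32.9, 33.9 and 27.4 FPKM in Vehicle (1.49-fold, log2 0.57, SE 0.10, limma adjusted p = 0.0359). Over all tested genes 1.24% were called, 0.522% higher and 0.72% lower. The Sc5d call was lost when any of 9 of the 12 libraries was left out and when only these 2 groups were fitted (adjusted p up to 0.157).

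Sc5d had its lowest level in TGFB1, a middle level in Vehicle and its highest levels in both knockout groups (46.8 ± 2.28 FPKM in Vehicle_Tgfbr2KO and 43.8 ± 5.40 FPKM in TGFB1_KO, SD, n = 3). No library of the 2 knockout groups was below 37.9 FPKM, and no Vehicle library was above 33.9 FPKM. For the other members the genotype difference did not pass in the fit without a block, though 23 of 29 had a negative value (median log2 -0.19). Over all tested genes 6384 of 12641 had a negative value (median log2 -0.003). Srebf2 was at 28.1, 33.1 and 38.5 FPKM in Vehicle_Tgfbr2KO (log2 -0.40, SE 0.16, limma adjusted p = 0.178), all below the Vehicle libraries. Mylip there ranged up to 7.37 FPKM, below the lowest Vehicle library at 8.35 FPKM (log2 -0.70, SE 0.29, adjusted p = 0.193). In all, 6 members lay wholly below Vehicle (20.7%, against 15.6% of all tested genes) and 3 wholly above (10.3%, against 14.8%). The summed level of 8 fibroblast markers moved with this comparison as well, from 5578 to 10080.3 FPKM over the Vehicle libraries against 2899 to 4206 FPKM over the Vehicle_Tgfbr2KO libraries, and its part in these values was not tested.

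The libraries of a group also differed among themselves. The ranks below were counted for the members only, so whether they are particular to the members was not tested. Replicate 1 had the lowest FPKM of its group for 18 of 29 members in Vehicle, 21 in TGFB1, 19 in Vehicle_Tgfbr2KO and 19 in TGFB1_KO. TGFB1_KO replicate 3 had the highest of its group for 24 of 29 members and the highest of all 12 libraries for 13. Its 8 fibroblast markers summed to 7709 FPKM, against 3740 and 4529 FPKM in the other 2 libraries of its group, and the link between the 2 was not tested. That library enters TGFB1 against Vehicle only through the shared spread and the filter, and without it the counts there were 12 lower and 3 higher. The interaction without it passed for 5 positive and 2 negative members. Those 7 were not the same: Idi1 and Fdft1 no longer passed (limma adjusted p = 0.0504 and 0.0512), and Sc5d and Abcg1 did (0.0159 and 0.0454).

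**Figure D4:**
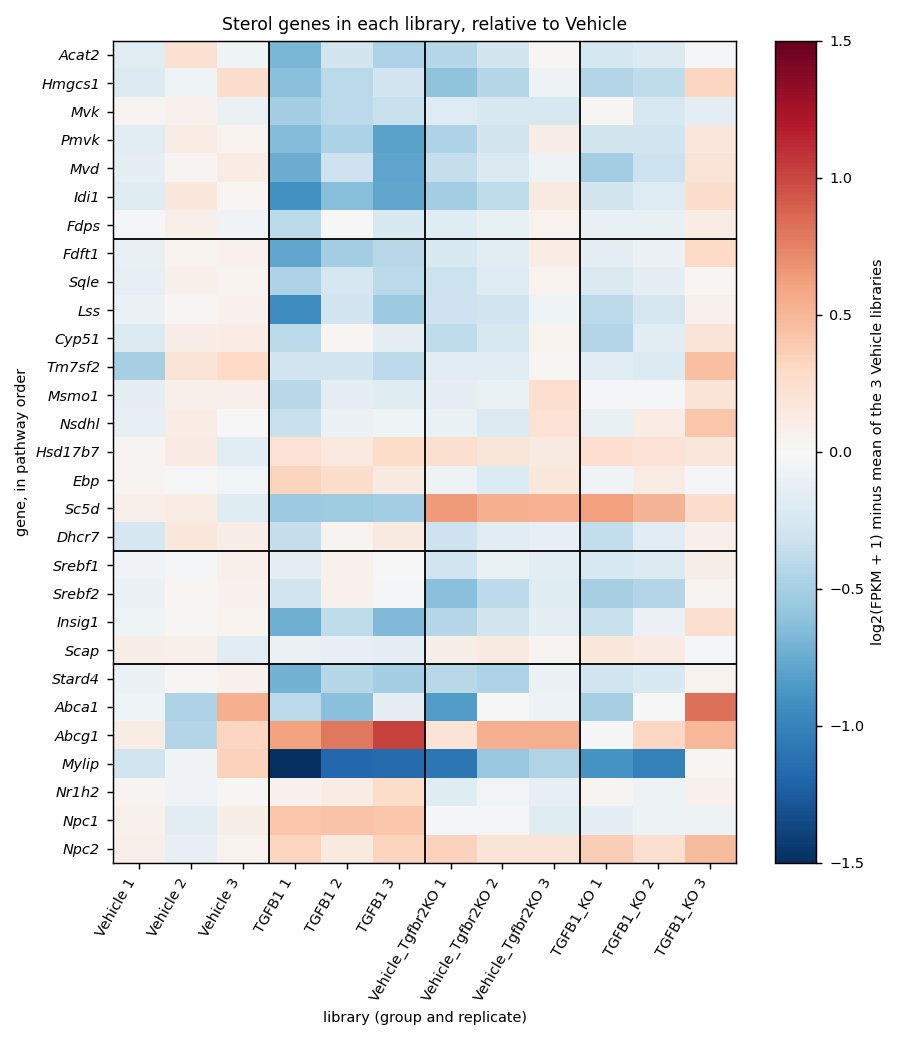
Each cell gives log2(FPKM + 1) of a gene (rows, in pathway order) in a library (columns, by group and replicate) minus the mean of the 3 Vehicle libraries, on a colour scale from -1.5 (blue) to 1.5 (red). The 3 TGFB1 columns are blue over most enzymes, Insig1, Stard4 and Mylip and red at Abcg1 and Npc1, and Sc5d is red in the 6 knockout columns.

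Genes next to the members were read from 4 lists of related genes. Among 11 tested enzymes of sterol, isoprenoid and acetyl-CoA supply, 2 fell and 2 rose with TGFB1 (18.2% each), near the 14.6% and 17.3% of all tested genes. Por, which passes electrons to the sterol oxidases, fell from 62.7 ± 5.86 to 43.5 ± 2.90 FPKM (SD, n = 3; log2 -0.52, limma adjusted p = 0.000765). Acss2, which makes acetyl-CoA from acetate, fell from 2.81 ± 0.0598 to 1.73 ± 0.0744 FPKM (SD, n = 3; log2 -0.48, adjusted p = 0.00627). Cyb5r3, a reductase of the cytochrome b5 chain, rose by log2 0.21 (adjusted p = 0.0182).

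Of 10 genes of SREBP processing and turnover 4 rose (40%, against 17.3% of all tested genes) and 1 fell (10%, against 14.6%). Fbxw7, of the ubiquitin ligase that clears active SREBP, rose from 5.63 ± 0.0871 to 9.88 ± 0.516 FPKM (SD, n = 3; log2 0.71, limma adjusted p = 1.26e-05). Erlin1, which restrains SREBP in the endoplasmic reticulum, fell by 0.67 on the log2 scale (limma adjusted p = 0.0118). The change of Fbxw7 also differed between the genotypes (interaction log2 -0.64, adjusted p = 0.000520).

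The fatty acid targets of SREBP had 4 lower (33.3%, against 14.6% of all tested genes) and none higher of 12. Elovl6, a fatty acid elongase gene, fell 3.15-fold, from 11.1, 13.7 and 9.89 FPKM to 3.67, 4.74 and 2.59 FPKM (log2 -1.44, SE 0.17, limma adjusted p = 0.000208). Elovl5, another elongase gene, fell by 0.65 on the log2 scale (adjusted p = 0.0139) and Scd1, a desaturase gene, by 0.30 (adjusted p = 0.0226). In the knockout cultures Elovl6 stood at 10.8 ± 1.13 FPKM with vehicle and 11.4 ± 1.71 FPKM with TGFB1 (SD, n = 3; interaction adjusted p = 0.00289).

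Among 17 tested genes of LXR response, storage and traffic 4 rose (23.5%, against 17.3% of all tested genes) and 5 fell (29.4%, against 14.6%). Ch25h, whose enzyme makes an oxysterol that lowers SREBP activity, fell from 13.6, 12.8 and 15.6 FPKM to 2.09, 1.31 and 2.84 FPKM (6.74-fold, log2 -2.31, SE 0.16, limma adjusted p = 9.38e-06). Nr1h3, the other LXR receptor gene, fell from 2.80, 2.91 and 3.20 FPKM to 0.607, 0.508 and 0.445 FPKM (5.71-fold, log2 -1.38, SE 0.09, adjusted p = 6.60e-06). Plin2, for a coat protein of lipid droplets, rose from 73.6 ± 8.69 to 148 ± 5.57 FPKM (SD, n = 3; log2 1.00, adjusted p = 0.000597). The groups did not overlap for Ch25h or Nr1h3.

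In the knockout cultures Ch25h was at 17.3 ± 2.17 FPKM with vehicle and 19.9 ± 1.66 FPKM with TGFB1, and Nr1h3 at 3.32 ± 0.170 and 3.34 ± 0.403 FPKM (SD, n = 3). The interaction passed for both (limma adjusted p = 0.000134 for Ch25h and 0.000139 for Nr1h3) and for Plin2 (log2 -1.27, adjusted p = 0.00257). Plin2 was also higher in Vehicle_Tgfbr2KO than in Vehicle, at 120.5 ± 4.16 FPKM (SD, n = 3; log2 0.71, adjusted p = 0.0480).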

How the data were processed

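RNA-seq was measured in 12 libraries of 4 groups. Per the labels' protocols, libraries were made from polyadenylated RNA. The authors deposited 1 table of FPKM per gene symbol. Per the submitters' processing notes kallisto 0.46.1, DESeq2 1.40.1 and the build mm9 were used, while the scaling between libraries is not given in the sources used here. Read counts were not used, so a count test was not run.

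Values were taken as log2(FPKM + 1), which understates the change of low genes, and a gene was tested where 3 or more libraries had 1 FPKM or more (12641 of 25203). Group means were fitted to all 12 libraries with limma 3.58.1 in R 4.3.3 (8 residual degrees of freedom, variance trend), and Benjamini-Hochberg adjustment ran over the whole set of tested genes (threshold 0.05). Folds are ratios of mean FPKM. The median 95% interval of a log2 change extended 0.242 each way. Code for the fits was first tested on simulated data. The members and lists were chosen with earlier results of these data known.

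All 29 members could be named; those given library by library were up to 4 called members of each role with the largest change, members called in other comparisons and 4 fixed genes (Srebf1, Srebf2, Insig1, Abca1), a few others being added after their values were seen. From each related list up to 3 called genes with the largest change were named, except 1 that is not reported here, and of its 52 genes 51 were in the table.

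Replicates 1, 2 and 3 stand for 3 label numbers found in every group. Deviations from the group mean correlated between same-numbered libraries of 1 genotype, at 0.391, 0.445 and 0.408 for Vehicle and TGFB1 and at 0.588, 0.227 and 0.529 for Vehicle_Tgfbr2KO and TGFB1_KO. Between Vehicle and Vehicle_Tgfbr2KO they were 0.336, -0.0867 and 0.412, and between Vehicle and TGFB1_KO 0.412, 0.167 and 0.607, so whether the numbers pair libraries across genotypes is not settled. The pairing within a genotype thus rests on shared label numbers and on the data. Relative depth was the inverse of the most frequent ratio to Vehicle replicate 1 among nonzero genes below 0.5 FPKM. Alternatives were the block, pseudocounts of 0.1 and 0.5, other filters, 3 scalings, no variance trend, a fit of the compared groups alone and each library left out.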

Additional observations from a re-analysis of the deposited data

Results flagged for a closer look

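For 7 sterol genes the change with TGFB1 differed between the genotypes by the interaction term (limma, Benjamini-Hochberg adjusted over 12641 genes). These were 24.1% of the 29 members, against 17.6% of all tested genes. The change in knockout cultures minus that in the others was 1.41 for Mylip, 0.97 for Idi1, 0.82 for Insig1, 0.71 for Stard4, 0.70 for Fdft1, 0.52 for Mvk and -0.43 for Npc1, in log2 units. The first 6 fell with TGFB1 in cultures not labelled knockout, and Npc1 rose there. None of the 7 passed in the knockout cultures alone, as none of the 12641 tested genes did. With 3 libraries per group, no outlier test was made.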

How the results depend on the processing

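For TGFB1 against Vehicle, 12 lower and 3 higher members became 9 to 16 members when libraries were left out in turn (9 without TGFB1 replicate 3). With the replicate block, within genotype or over all libraries, 18 members passed. Mvk, Idi1, Fdft1, Sc5d, Insig1, Stard4, Mylip and Npc1 were called in all 23 alternatives. Leaving out a knockout library cannot move a log2 change in this comparison, and alters only the spread and the genes tested. Of all genes 2184 were higher and 1849 lower, and upper-quartile scaling gave 1750 and 2105; no scaling moved the median of all genes by more than 0.05 on the log2 scale. In the knockout cultures 0 genes passed, 1 did with a pseudocount of 0.1, and 0 to 1 when libraries were left out. For the interaction, 2230 genes and 7 members passed. With the replicate block over all libraries it was 3658 genes and 14 members, with the replicate block within genotype 3558 and 16, and without the filter 4 members. Leaving out libraries gave 1430 to 2454 genes and 2 to 10 members. For Vehicle_Tgfbr2KO against Vehicle, 157 genes and 1 member passed. The replicate block over all libraries gave 1897 genes and 6 members (Hmgcs1, Srebf2, Stard4 and Mylip lower, Sc5d and Npc2 higher), and whether the numbers pair the genotypes is not settled. No filter gave 71 genes, no variance trend 90, the compared groups alone 0 genes and 0 members, and leaving out libraries 0 to 759 genes and 0 to 1 member. Changes that were not called crossed 0 when libraries were left out: Dhcr7 from -0.19 to 0.086 (0.019 without Vehicle replicate 2), Srebf1 from -0.078 to 0.024 (0.0050 without Vehicle replicate 3) and Srebf2 from -0.16 to 0.020. The cause was not tested. Interaction splits under scaling were 1059 higher and 1171 lower, and 1186 and 1002 with the upper quartile. Read counts were not used, and 3 libraries a group limit the precision.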
